A study of Saccharomyces cerevisiae with 6 samples.

Results

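The nuclear genes for proteins of the mitochondrial ribosome were followed in the budding yeast Saccharomyces cerevisiae across a sugar change and the loss of a corepressor. The 66 genes are the reading frames whose standard name in the R64 annotation is MRPL, MRPS, RSM or MRP followed by a number, leaving out MRP8. They are 66 of the 6696 reading frames counted, 38 for the large and 28 for the small subunit, and they lie on 14 chromosomes. The reference note of 65 genes names the same subunit, and the note of MRPS12 names none.

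Mitochondrial ribosomes are made from RNA of the mitochondrial genome and from proteins that, apart from Var1 in yeast, are encoded in the nucleus, made in the cytosol and imported. They translate the few messages of the mitochondrial genome, nearly all of which encode subunits of the respiratory chain and of ATP synthase. Yeast represses respiration on glucose, and the messages of many mitochondrial ribosomal proteins are bound in their 3′ ends by the RNA-binding protein Puf3, which promotes their decay on glucose.

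Both strains were BY4741, with or without cyc8[delta]::kanMX4, which removes CYC8, the gene of a corepressor that acts with Tup1. The labels give 3 h in rich medium of 2% peptone and 1% yeast extract with 2% glucose or 2% mannose. Total RNA depleted of ribosomal RNA was sequenced as 6 stranded libraries in 4 groups, which are 2 wild type and 2 deletion libraries from glucose and 1 of each genotype from mannose. Whether replicates came from separate cultures is not stated, so p-values measure only the spread between these libraries, which may be technical. With 1 library each, the mannose groups have no replicate error of their own, and their tests assume that they vary like the glucose pairs.

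The libraries held 26195734 to 44084216 counts. CYC8 stood at 197 to 207 CPM (counts scaled to equal library size by TMM factors) in the 3 wild type libraries and at 2.17, 2.92 and 7.92 CPM in the 3 deletion libraries. LEU2, MET17 and URA3, deleted in BY4741, had 0 counts in each library, which allows up to 0.0681 to 0.115 CPM by counting error alone. The deletion library in mannose stood apart. It had the fewest counts, a TMM factor of 0.868 against 0.99 to 1.08, and 2.65% of its counts in reading frames of the mitochondrial genome against 0.251% to 0.857% in the others. Every result on that library carries these differences, and their part in it was not tested.

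The most uniform trait of the genes was a sequence that the counts had no part in. The letters TGTANATA, the DNA form of the element known to be bound by Puf3 in which N is any base, were searched on the coding strand in the 250 bases after the stop codon. They were found in 65 of the 66 genes (98.5%), in all 38 of the large and in 27 of 28 of the small subunit. RSM22, a small-subunit component that resembles methyltransferases, was the exception. Of the other 5922 nuclear reading frames 844 (14.3%) had a match, and of all 5988 nuclear frames 15.2%. On the opposite strand 13 of the 66 genes (19.7%) and 14.5% of the other frames had one. Within 150 and within 400 bases the count was also 65 of 66.

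The first matches of genes named in the results below are shown to let the variable base and the flanks be compared, with the match in capitals and 8 bases on either side, 5′ to 3′ on the coding strand.
RSM10: ttcgtactTGTAAATAaaataggt
RSM7: aacttgccTGTACATAaacacatt
MRPS12: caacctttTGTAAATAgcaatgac
MRP51: cagagttcTGTAAATAaataaaga
MRP2: tacgcactTGTAAATAaatacatg
RSM26: ttatatacTGTAAATAgttttatt
MRPL4: ctctctccTGTAAATAtatatata
MRP20: ctcacactTGTATATAcggagcaa
MRPL24: ttttccccTGTATATAaaaaagca
MRPL8: tattccctTGTAAATAtatagatg
MRPL36: aacagcctTGTATATAccgcaaca
MRPL22: tgtgattcTGTAAATAacaactag
MRPL32: cttaagccTGTATATAgaaactta
MRPL3: tgccatttTGTAGATAgagaactc
MRP35: ggtcttcaTGTATATAaataagta

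In the R64 build (sacCer3) the small-subunit sites lie at chrIV:540465-540488 (RSM10, plus strand), chrX:638195-638218 (RSM7, minus), chrXIV:694272-694295 (MRPS12, minus), chrXVI:327700-327723 (MRP51, plus), chrXVI:876217-876240 (MRP2, minus) and chrX:619114-619137 (RSM26, plus). Those of the large subunit lie at chrXII:1015470-1015493 (MRPL4, plus), chrIV:1278502-1278525 (MRP20, plus), chrXIII:650859-650882 (MRPL24, plus), chrX:315717-315740 (MRPL8, minus) and chrII:483853-483876 (MRPL36, minus). The last 4 lie at chrXIV:303535-303558 (MRPL22, minus), chrIII:119209-119232 (MRPL32, plus), chrXIII:323057-323080 (MRPL3, plus) and chrXIV:397924-397947 (MRP35, minus). All lie downstream of the coding sequence. Whether they are inside the 3′ UTR of the messages made here was not measured.

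The matches lay close to the stop codon. The first base of the first match was 8 bases (MRPS5) to 139 bases (MRPS9) after it, with a median of 51, and 61 of 65 lay within 100 bases. Among the 844 other frames 68.1% of the first matches did. The variable base was A in 32 genes, T in 20, C in 12 and G in 1, MRPL3. In 46 of 65 genes (70.8%) the second base before the match was C, against 24.6% of the other frames with a match. The flanks printed above show it in RSM10, RSM7, MRP20 and MRPL36, among others. One match was present in 51 genes, 12 genes had 2 matches, and MRPL19 and RSM19 had 3. A match is a description of letters, and binding was not measured.

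**Figure D1:**
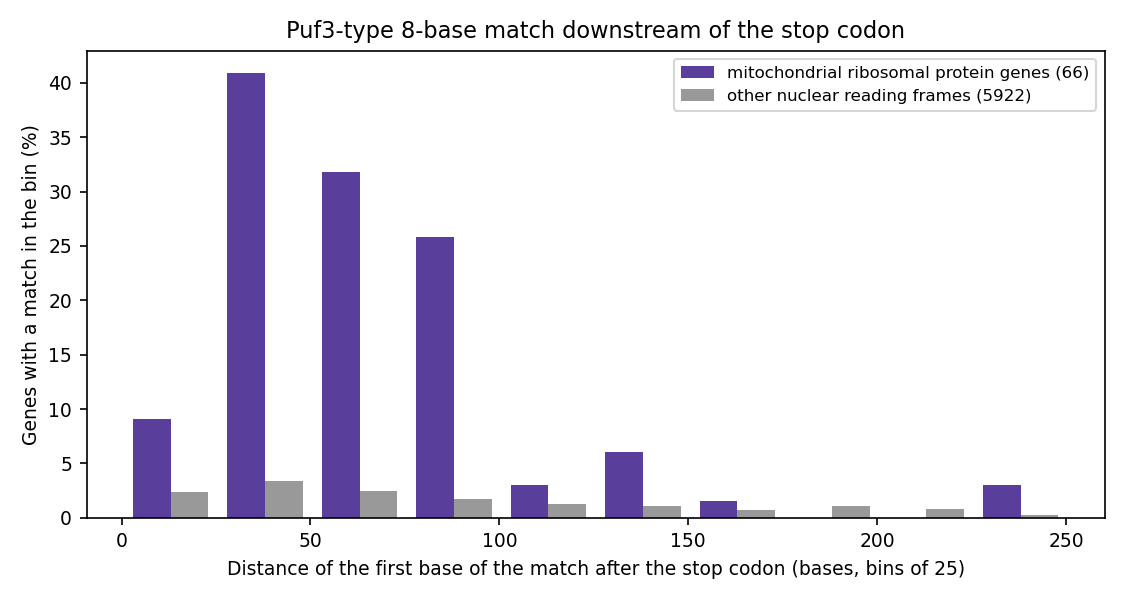
Share of genes (%) with TGTANATA starting in each bin of 25 bases after the stop codon, for the 66 mitochondrial ribosomal protein genes and the 5922 other nuclear reading frames. The bin from 26 to 50 bases holds a match in 40.9% of the genes and in 3.36% of the other frames, and no bin of the other frames exceeds that.

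Upstream of the genes no searched element was as common. In the window from 250 bases before to 50 after the start of the reading frame, AATTTT on either strand was found in 42.4% of the 66 genes and 51.7% of all nuclear frames. CCAAT on either strand, the core of the element bound by the Hap2/3/4/5 complex, was in 42.4% against 43.3%. TATAAA on the coding strand was in 16.7% against 29.6%.

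In wild type on glucose the genes lay above the typical nuclear frame and differed widely from each other. Their median level per coding length was 32.9 and 33 CPM per kb in the 2 libraries, against 22.6 in both for all nuclear frames. The lowest and highest genes stood at 10.3 and 109 CPM per kb in replicate 1. The subunits had close medians, 32.2 CPM per kb for the large and 33.1 for the small.

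MRPS12, the small-subunit protein uS12m of the decoding centre, was the most abundant message. It stood at 109 and 117 CPM per kb in wild type on glucose, 169.7 in wild type on mannose, 88.5 and 90.3 in the deletion on glucose, and 121 in the deletion on mannose. Both deletion libraries on glucose were thus below both wild type ones, and each mannose library was above the glucose pair of its genotype. MRP51, known for its part in translating mitochondrial messages through their leaders, followed in the small subunit with 62.4 and 62.6 CPM per kb in wild type on glucose, 84.4 on mannose, 63.5 and 69.5 in the deletion on glucose and 64.1 on mannose. In the large subunit MRPL36 (bL31m, a family that bridges the subunits) led with 55.8 and 57.7 in wild type on glucose, ahead of MRPL31 (mL60) with 52.3 and 52.7. The replicates of these genes differed by little beside the distance to the lowest genes, MRP35 (bL35m, 10.3 and 11.2) and MRPL24 (bL28m, 15.9 and 16.7) in the large subunit. In the small subunit RSM22 (17.7 and 18.4) and RSM24 (mS35, 19.8 in both) were lowest. MRP35 rested on 20 to 175 counts per library, so its values were the least precise.

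**Figure D2:**
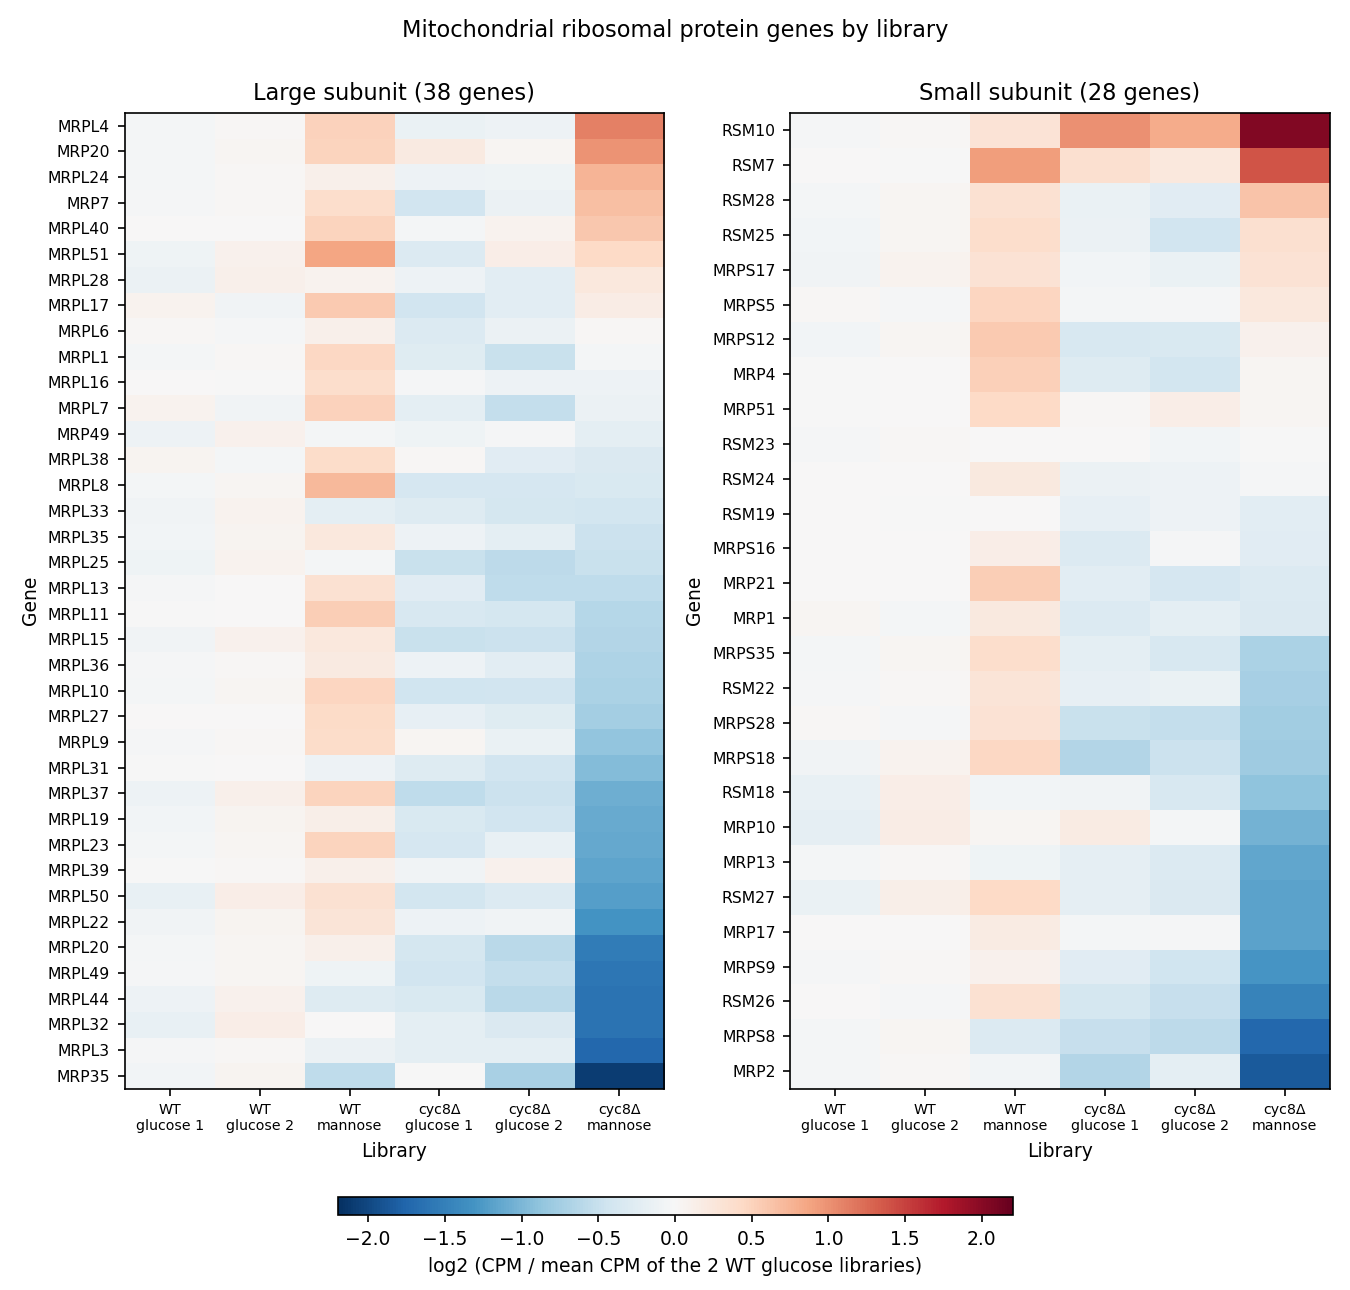
Level of each of the 66 genes in each library as the log2 ratio of its CPM to its mean CPM in the 2 wild type glucose libraries (colour), for the large (left) and small subunit (right), sorted by the deletion library on mannose. The wild type mannose column is mostly red, the deletion glucose columns mostly pale blue, and the deletion mannose column runs from RSM10, MRPL4 and MRP20 at the top to MRP35 and MRP2 at the bottom.

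In wild type on mannose 36 of the genes, from both subunits, stood higher than on glucose by less than 2-fold, and the other 30 did not pass the test. By the quasi-likelihood test of edgeR, adjusted over the 6146 features tested (Benjamini-Hochberg), 36 of the 66 rose and none fell at an adjusted p under 0.05. Among all features 20.5% rose and 16.9% fell. The median log2 change was 0.31 in the large subunit (20 of 38 rose) and 0.30 in the small (16 of 28 rose), beside 0.02 over all features. No gene reached a 2-fold change, which 2.16% of all features did upward and 1.89% downward. At an unadjusted p under 0.05 3 of the genes were lower. DESeq2 called 22 higher and none lower, beside 14.7% and 9.74% of its features, and at an unadjusted p under 0.05 it had 34 higher and 0 lower.

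RSM7, the protein uS7m of the head of the small subunit, rose the most. It stood at 50.3 and 50 CPM per kb on glucose and 94.3 on mannose, a log2 change of 0.91 ± 0.09 (SE; edgeR adjusted p = 7.94e-14). The mannose library lay far above both glucose libraries. MRPL51, the mitochondria-specific protein mL43, went from 25.3 and 28.7 to 49.2 CPM per kb, with a log2 change of 0.86 ± 0.13 (edgeR adjusted p = 6.54e-08). YPR099C, a frame annotated on the opposite strand, overlaps it by 323 bases and had 15 to 25 counts per library. MRPL8 (bL17m) went from 31.1 and 33.3 to 52.5 CPM per kb, a log2 change of 0.71 ± 0.11 (edgeR adjusted p = 5.38e-08).

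Among genes of known site, MRPS12 rose by 0.58 ± 0.09 on the log2 scale and MRP51 by 0.43 ± 0.09. MRPL36 (0.20 ± 0.10), MRP1 (0.21 ± 0.10), MRP13 (−0.09 ± 0.11) and MRPL32 (0.01 ± 0.15) did not pass the test. MRP35 had the lowest value, −0.56 ± 0.24 with an edgeR adjusted p of 0.0538. Its level was 10.3 and 11.2 CPM per kb on glucose and 7.29 on mannose.

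Fewer rises were called with 1 glucose library of wild type, 22 without replicate 1 and 27 without replicate 2 (13.6% and 13.8% of all features). The change moved with base composition among the 66 genes (Spearman's rho with GC content 0.44, as a description, and 0.42 over 5828 nuclear frames). Of the 3 largest rises, RSM7 (52% GC) and MRPL8 (48.7%) lay far above the median of 39.6% of the 66 genes. MRPL51 (41.1%) lay near it, and RSM19 (48.6%) had a log2 change of 0.01 ± 0.13. The part of base composition in the rises was not tested. With the biological coefficient of variation set to 0.2 in place of the fitted spread, edgeR called none of the genes higher (1.37% of all features) and 3 at an unadjusted p under 0.05.

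On glucose, loss of CYC8 went with a small lowering of 36 of the genes and a rise of 2. In edgeR's test 36 of the 66 fell and 2 rose, while 37.8% of all features fell and 30.1% rose. The median log2 change was −0.27 in the large subunit (21 of 38 fell, none rose) and −0.23 in the small (15 of 28 fell, 2 rose), beside −0.08 over all features. For the large subunit, 23 were lower and none higher at an unadjusted p under 0.05, and DESeq2 also called none higher. No fall reached 2-fold, as 4.8% of all features did. Between replicates, the median of all 66 relative to all features differed by 0.065 in wild type and −0.061 in the deletion.

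The 2 rises were RSM10 and RSM7, which encode the proteins uS10m and uS7m of the head of the small subunit. RSM10 stood at 27.5 and 28.4 CPM per kb in wild type and at 56.1 and 49.0 in the deletion, so the groups were far apart. Its log2 change was 0.91 ± 0.09 (edgeR adjusted p = 1.49e-15). RSM7 stood at 50.3 and 50 against 63.8 and 58.8 CPM per kb, a log2 change of 0.29 ± 0.08 (edgeR adjusted p = 0.00113). With GC and length trends removed, the RSM7 change was 0.05 and no longer passed. Its GC content of 52% was the highest of the 66 genes.

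The largest falls were those of MRPS18, MRPS8 and MRPL25. MRPS18 (uS11m) stood at 50.3 and 55.8 CPM per kb in wild type and 33.8 and 38.2 in the deletion (log2 change −0.56 ± 0.09, edgeR adjusted p = 3.24e-08). MRPS8 (uS8m) stood at 30.8 and 32.8 against 22.3 and 21.3 (−0.55 ± 0.11, edgeR adjusted p = 1.31e-05). MRPL25 (mL59) stood at 24.2 and 27.5 against 18.4 and 17.4 (−0.54 ± 0.12, edgeR adjusted p = 4.52e-05). In each of these genes both deletion libraries were below both wild type libraries. MRP1 fell by 0.26 ± 0.08 and MRP13 by 0.25 ± 0.09, whereas MRPL36 (−0.17 ± 0.09) and MRP51 (0.09 ± 0.08) did not pass.

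Fewer falls were found with other tools and libraries. DESeq2 called 19 (25.5% of its features), and without deletion glucose replicate 2 edgeR called 22 (31.6%). With a coefficient of variation of 0.2 edgeR called no fall of the genes (8.75% of all features), none at an unadjusted p under 0.05 either, and 1 rise, that of RSM10. Over the 4 glucose libraries with a replicate block and GC and length trends removed, 19 of 66 fell, a share below the 31.3% of all features.

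In the deletion strain the genes changed in both directions on mannose, with a lower and narrower middle 50% than all features and few large rises. Against the deletion on glucose, 17 rose and 29 fell in edgeR's test, beside 37.6% and 39.7% of all features. The log2 changes ran from −1.73 to 1.23, with a middle 50% from −0.86 to 0.26, beside −0.70 to 0.76 for all features. The share of falls was near the background and that of rises (25.8%) below it. The large subunit had 9 rises and 18 falls (median −0.23), the small 8 rises and 11 falls (median −0.10), beside a median of −0.04 over all features. Of these changes 3 rises and 13 falls were at least 2-fold, which 18.7% and 14.9% of all features reached.

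The 3 largest rises were MRPL4, RSM10 and RSM7. MRPL4 (uL29m), which sits at the mouth of the exit tunnel for the nascent chain, stood at 19.8 and 20.2 CPM per kb on glucose and 47.0 on mannose (log2 change 1.23 ± 0.11, edgeR adjusted p = 5.09e-18). RSM10 stood at 56.1 and 49.0 on glucose and 114 on mannose (1.12 ± 0.10, edgeR adjusted p = 1.32e-17). RSM7 stood at 63.8 and 58.8 against 131 (1.09 ± 0.09, edgeR adjusted p = 1.25e-18). In all 3 the mannose library lay above both glucose libraries by more than they differed from each other. In that library RSM7 was the highest of the 66 genes per length, followed by MRPS12 (121) and RSM10.

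The 3 largest falls were MRP35, MRPL3 and MRP2. MRP35 stood at 10.6 and 6.57 CPM per kb on glucose, a wide gap between replicates, and at 2.53 on mannose, where it had 20 counts (log2 change −1.73 ± 0.36, edgeR adjusted p = 1.14e-05). MRPL3 (mL44), related to RNase III, stood at 26.0 in both glucose libraries and 9.23 on mannose (−1.49 ± 0.13, edgeR adjusted p = 1.72e-18). MRP2 (uS14m), a head protein, stood at 21.6 and 29.0 against 9.35 (−1.45 ± 0.21, edgeR adjusted p = 1.49e-09). With GC and length trends removed, MRP35 (−0.69) and MRP2 (−0.27) no longer passed.

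Proteins that lie close together in the particle had genes that rose and genes that fell. The sites named here were chosen after the values were seen. Around the exit tunnel MRPL4, MRP20 (uL23m, 0.87 ± 0.11) and MRPL40 (uL24m, 0.57 ± 0.12) rose, while MRPL22 (uL22m, −1.21 ± 0.13) fell. MRP20 stood at 33.8 and 30.1 CPM per kb in the deletion on glucose and 58.4 on mannose, and MRPL22 at 27.5 and 28.3 against 12.1. In the head of the small subunit RSM10 and RSM7 rose, MRP2 and MRPS9 (uS9m, −0.96 ± 0.12) fell, and RSM19 (uS19m) had a log2 change of −0.09 ± 0.14. MRP7 (bL27m), close to the peptidyl transferase centre, rose by 0.92 ± 0.10, and RSM28 (mS46) by 0.82 ± 0.11.

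Shorter genes stood lower in this comparison. The 33 genes under the median coding length of 706.5 bases had a median log2 change of −0.56 (4 rises, 19 falls), and the 33 above it 0.02 (13 rises, 10 falls), beside 37.6% rises and 39.7% falls over all features. Spearman's rho with coding length was 0.33 over the 66 genes and 0.12 over 5828 nuclear frames, given as a description. With GC and length trends removed the count became 25 rises and 18 falls (40.6% and 36.4% of all features).

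**Figure D3:**
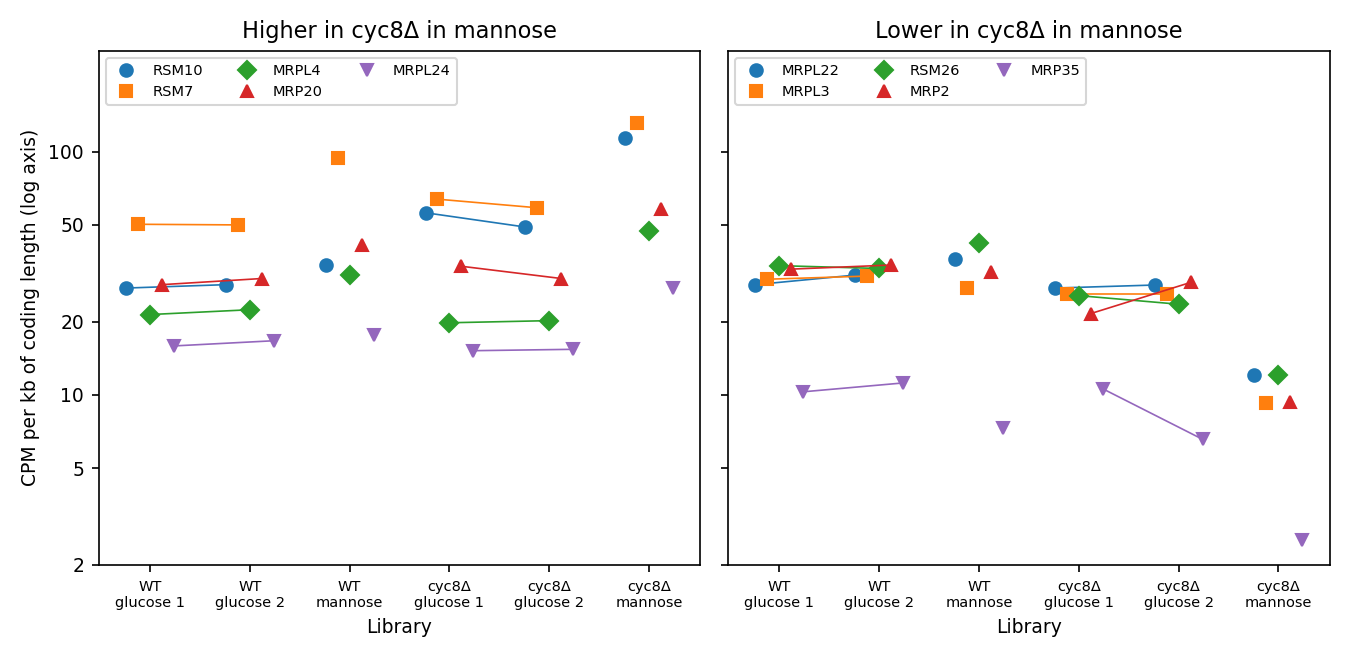
Level of 10 genes in each library in CPM per kb of coding length (log axis), with lines joining the 2 glucose libraries of a genotype and symbols set side by side. On the left, RSM10 lies furthest above wild type in the deletion glucose libraries (56.1 and 49.0 against 27.5 and 28.4). RSM7 also lies above, by less (63.8 and 58.8 against 50.3 and 50). On the right all 5 genes are lowest in the deletion on mannose.

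Between the genotypes on mannose, 1 library each, the deletion was lower for 48 of the 66 genes and higher for 7 in edgeR's test. Among all features 41.1% were lower and 38.3% higher. The median log2 change was −0.88 in the large subunit (29 lower, 4 higher of 38) and −0.68 in the small (19 lower, 3 higher of 28), beside −0.07 over all features. At least 2-fold lower were 29 genes, 17 of the large and 12 of the small subunit, a size that 20.8% of all features reached. RSM10 alone was at least 2-fold higher, as 23.7% of all features were.

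The lowest against wild type were RSM26, MRP2 and MRPL20. RSM26 (mS42), related to superoxide dismutases, stood at 42.2 CPM per kb in wild type and 12.1 in the deletion (log2 change −1.80 ± 0.15, edgeR adjusted p = 1.27e-19). MRP2 stood at 32.1 against 9.35 (−1.78 ± 0.22, edgeR adjusted p = 1.03e-11). MRPL20 (mL58) stood at 52.0 against 16.6 (−1.65 ± 0.15, edgeR adjusted p = 2.17e-17). MRP1 (mS43), the other relative of superoxide dismutases, stood at 58.3 against 40.6 (−0.52 ± 0.12). MRPL36 stood at 65.4 against 35.6 CPM per kb and MRP13 at 26.1 against 12.6. MRPL32, whose protein is trimmed by the m-AAA protease before it joins the large subunit, differed by −1.64 ± 0.22, MRP13 by −1.06 ± 0.14, MRPL36 by −0.88 ± 0.13 and MRP51 by −0.40 ± 0.11.

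The genes that were higher were RSM10, MRPL24, MRPL4, MRP20, RSM7, RSM28 and MRP7. RSM10 stood at 34.3 CPM per kb in wild type and 114 in the deletion (log2 change 1.74 ± 0.13, edgeR adjusted p = 3.55e-23). MRPL24 stood at 17.6 against 27.4 (0.64 ± 0.15, edgeR adjusted p = 0.000129) and MRPL4 at 31.2 against 47.0 (0.59 ± 0.13, edgeR adjusted p = 1.63e-05). With upper-quartile scaling, which moves the median of all features to −0.39, 2 genes were higher (30.1% of all features) and MRPL24 (0.31) was not called. With GC and length trends removed 34 were lower and 14 higher (36% and 43.5% of all features), and with a coefficient of variation of 0.2 29 were lower (21.6%) and only RSM10 was higher.

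In the test of whether the response to mannose differed between the genotypes, the interaction, 39 of 66 genes were lower and 6 higher in the deletion's response, beside 34.4% and 29.7% of all features. The 2 directions together made up 64.2% of all features, so the number of genes called in either direction was near the background. The medians were −0.57 in the large subunit (24 lower, 4 higher) and −0.52 in the small (15 lower, 2 higher), beside −0.08 over all features. This value is built from the libraries used in the comparisons above and is not independent of them.

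MRPL22, the exit-tunnel protein uL22m, had the largest difference. It went from 28.4 and 31.1 to 36.3 CPM per kb on mannose in wild type and from 27.5 and 28.3 to 12.1 in the deletion (interaction −1.49 ± 0.17, edgeR adjusted p = 9.59e-13). Its direction was thus opposite in the genotypes, and both changes passed the test. MRP2 (−1.38 ± 0.26, edgeR adjusted p = 2.03e-06) and MRPL32 (−1.37 ± 0.25, edgeR adjusted p = 2.01e-06) followed. MRPL32 stood at 17.2 and 21.3 against 19.4 CPM per kb in wild type and at 16.6 and 15.4 against 6.22 in the deletion.

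RSM10 (0.83 ± 0.15, edgeR adjusted p = 1.67e-06), MRPL24 (0.73 ± 0.19, edgeR adjusted p = 0.000474) and MRPL4 (0.72 ± 0.16, edgeR adjusted p = 3.53e-05) had the largest differences in the other direction. MRPL24 stood at 15.9 and 16.7 against 17.6 CPM per kb in wild type and at 15.2 and 15.4 against 27.4 in the deletion. RSM7, which rose on mannose in both genotypes, had an interaction of 0.18 ± 0.14 that did not pass. With GC and length trends removed 25 genes were lower and 11 higher (32.1% and 32.5% of all features), and MRP2 (−0.50) no longer passed. With a coefficient of variation of 0.2 edgeR called MRPL22 alone lower (4.3% of all features) and none higher, beside 15 lower and none higher at an unadjusted p under 0.05.

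**Figure D4:**
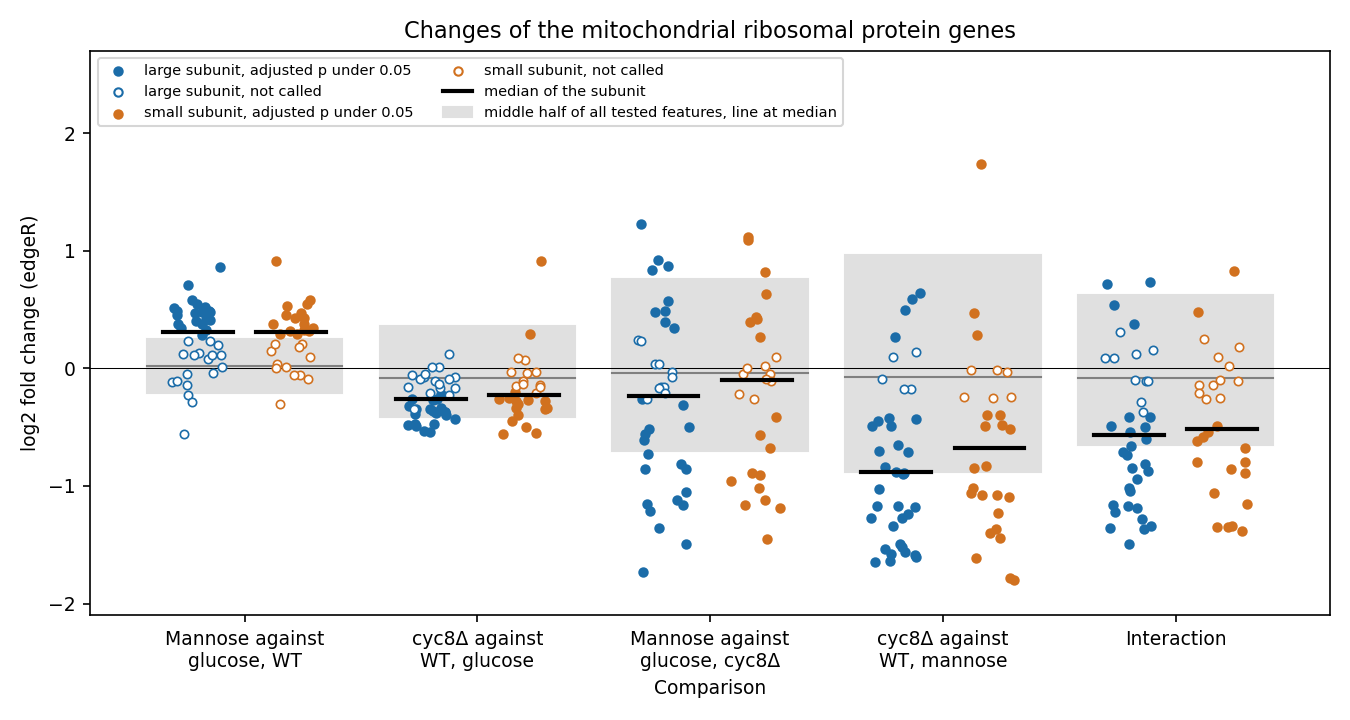
Log2 fold change of each of the 66 genes in the 5 comparisons, by subunit (colour), filled where edgeR's adjusted p is under 0.05, with the subunit median as a bar and the middle 50% of all tested features as a grey band. The points spread from −0.56 to 0.91 for mannose in wild type and from −1.80 to 1.74 for the deletion against wild type on mannose, and the bars of the subunits lie side by side in each comparison.

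Summed, the genes held 0.152% and 0.163% of all counts in wild type on glucose, 0.194% in wild type on mannose, 0.147% and 0.145% in the deletion on glucose and 0.12% in the deletion on mannose. The largest counting interval (95%, Wilson) was 0.1929% to 0.1957%, and such an interval covers counting error alone. The 2 wild type glucose libraries also differed by more than that, at 0.1509% to 0.1534% against 0.1622% to 0.1646%. The intervals therefore do not tell a difference between groups from one between replicates. In bulk RNA these shares do not tell a change in the messages of each cell from a change in the total they are set against.

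The subunits were also compared by their sums. Summed counts of the large subunit were 1.02 and 1.03 times those of the small in wild type on glucose and 1.01 times on mannose. In the deletion they were 0.962 and 0.965 times on glucose and 0.869 times on mannose. The ratio of the median levels per length took another course. It was 0.981 and 0.982 in wild type on glucose, 0.973 on mannose, 0.922 and 0.921 in the deletion on glucose and 0.998 in the deletion on mannose. Both ratios were lower in the deletion than in wild type on glucose, and in the deletion on mannose the first was at its lowest and the second at its highest of the 6 libraries. The sums were also taken without RSM10 and RSM7, a choice made after their values were seen. The ratio of sums was then 1.1 and 1.11 in wild type on glucose and 1.11 on mannose. In the deletion it was 1.09 and 1.08 on glucose and 1.12 on mannose, the highest of the 6 libraries.

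Likeness to the median profile of the 66 genes over the 6 libraries, Pearson's r on log2 CPM, was highest for MRPL11 (uL10m, 0.989), MRPL10 (uL15m, 0.989) and MRPS18 (0.980). It was lowest for RSM10 (−0.702), MRPL24 (−0.258) and MRP20 (−0.154). MRPL10 stood at 44.7 and 47.3 CPM per kb in wild type on glucose, 63.9 on mannose, and at 33.9 and 34.4 against 28.5 in the deletion. MRPL10 was picked for its likeness to the median profile, so its course is that of the median by choice. That course is up on mannose in wild type, lower in the deletion on glucose and lowest in the deletion on mannose. Not all of the genes followed it, as the low values of r show.

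RSM10 and RSM7 also share a trait of position, noticed after their values were seen. Of the 38 genes with a divergent upstream neighbour 4 had a neighbour that rose at least 2-fold in the deletion on glucose. This was near the share of all features that rose so, 12.7%. RSM10 lies 1335 bases from ENA1, a sodium pump gene whose near-identical copies make its counts uncertain, with a log2 change of 3.38 ± 0.09. RSM7, whose own rise did not pass with GC and length trends removed, lies 966 bases from YJR115W (3.41 ± 0.13). MRPL15 lies 646 bases from ATG39, a receptor gene of nuclear autophagy (3.57 ± 0.13), and itself fell by 0.48. MRP51 lies 363 bases from DBP1, a helicase gene whose log2 change was 1.00 ± 0.13, and had a change of 0.09 ± 0.08. Of the 4 genes 2 rose, so a rising neighbour did not always go with a rise.

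Other genes of mitochondrial translation carried the same downstream letters in different shares. TGTANATA was found in 14 of 14 genes of mitochondrial aminoacyl-tRNA synthetases, in 7 of 9 of translation factors, in 14 of 18 of translational activators and in 8 of 10 of assembly and rRNA modification. All 11 nuclear mitochondrial ribosomal protein genes with other names had it, 7 of the large and 4 of the small subunit. It was found in 12 of 18 import genes, in 5 of 31 nuclear genes of the respiratory chain and ATP synthase, and in 8 of 138 cytosolic ribosomal protein genes.

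In wild type on mannose, where the median of the 66 genes was 0.30, the lists had medians on both sides of it. Among all features 20.5% rose and 16.9% fell. The rises of activators and of cytosolic ribosomal protein genes were near that share. The median was 0.33 for translation factors (5 of 9 rose), 0.33 for synthetases (8 of 14 rose) and 0.39 for large-subunit genes with other names (4 of 7 rose). It was 0.20 for assembly and rRNA modification (5 of 10 rose), 0.18 for small-subunit genes with other names including VAR1 (2 of 5 rose, 1 fell), 0.15 for import (8 of 18 rose, 1 fell) and 0.13 for activators (4 of 18 rose, 2 fell). The translation factor MEF2 rose by 0.72 ± 0.11 and the synthetase gene NAM2 by 0.62 ± 0.10. Nuclear respiratory chain genes had a higher median of 0.73 (24 of 31 rose), with SDH1 at 1.51 ± 0.09. Cytosolic ribosomal protein genes had a median of 0.05 (35 of 138 rose, 17 fell).

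In the deletion on mannose against wild type the lists had medians of both signs. Among all features 41.1% were lower and 38.3% higher. The calls of assembly genes and the higher calls of translation factors were near those shares. The median was −0.55 for synthetases (10 of 14 lower), −0.64 for activators (10 of 18 lower, 2 higher) and −0.80 for import (13 of 18 lower, 1 higher). It was −0.68 for large-subunit genes with other names (6 of 7 lower), −0.74 for those of the small subunit with VAR1 (3 of 5 lower, 1 higher) and −0.42 for assembly (5 of 10 lower, 4 higher). It was −1.99 for cytosolic ribosomal proteins, all 138 of which were lower. Translation factors had a median of 0.30 (4 of 9 higher, 1 lower) and respiratory chain genes 1.19 (27 of 31 higher, 2 lower), led by COX13 at 3.15 ± 0.11. On glucose the respiratory chain genes had a median of 0.64 (29 of 31 rose) where the 66 genes were at −0.26, and cytosolic ribosomal protein genes −0.72 (135 of 138 fell). The other lists had medians on glucose from −0.39 for import (14 of 18 fell, 1 rose) to 0.07 for translation factors (3 of 9 rose, 1 fell). Among all features 37.8% fell and 30.1% rose on glucose, and the rises of translation factors were near that share.

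**Figure D5:**
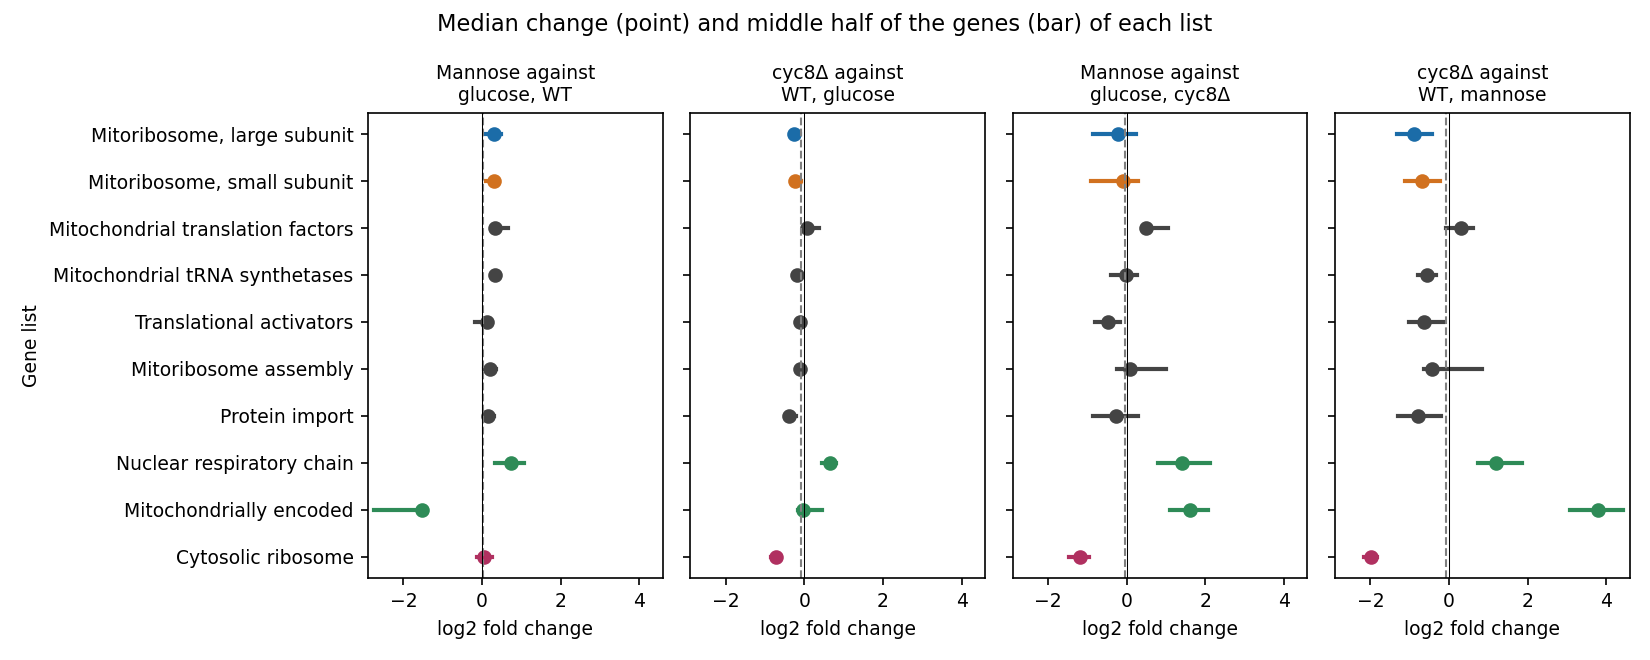
Median log2 fold change (point) and middle 50% of the genes (bar) for the 2 subunits of the mitochondrial ribosome and 8 other lists in 4 comparisons, with the median of all tested features as a dashed line. In the deletion on mannose against wild type the 2 subunits (−0.88 and −0.68) lie between the cytosolic ribosome (−1.99) and the nuclear respiratory chain (1.19).

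VAR1, the small-subunit protein gene of the mitochondrial genome, went the other way from most of its nuclear partners between the genotypes on mannose. It had 31 and 29 counts in wild type on glucose, 5 on mannose, 29 and 23 in the deletion on glucose and 289 in the deletion on mannose. Its log2 change in the deletion was 6.58 ± 0.42 on mannose against wild type (edgeR adjusted p = 2.98e-26), a size that rests on those 5 counts. The 7 tested protein genes of that genome were all higher in this comparison, with a median of 3.79, where 38.3% of all features were. The share of counts from that genome moved with them, as given above, and its part in the result was not tested.

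PUF3 itself stood at 129 and 127 CPM in wild type on glucose, 185 on mannose, 149 and 156 in the deletion on glucose and 408 in the deletion on mannose. It was higher in the deletion by 0.25 ± 0.07 on glucose (edgeR adjusted p = 0.00186) and by 1.14 ± 0.10 on mannose (edgeR adjusted p = 1.57e-17). HAP4, the activator subunit of the Hap complex, stood at 42.6 and 41.6, then 113, then 139 and 139.8, and then 742 CPM in the same order. Both were highest in the deletion on mannose. PUF3 and HAP4 were picked from a list of 10 regulators, and the levels of the others are not given here. A link between the levels of regulators and the 66 genes was not tested.

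The number of downstream matches was set beside the changes as a description. In wild type on mannose 32 of 51 genes with 1 match rose (median 0.34), and 3 of 14 with 2 or 3 matches did (median 0.14), the latter share near the 20.5% of all features. In the deletion on mannose against wild type 39 of the 51 were lower (median −0.90), and 8 of the 14 (median −0.44), beside 41.1% of all features. RSM22, with none, rose by 0.29 ± 0.10 on mannose in wild type and was lower by 1.02 on the log2 scale in the deletion on mannose. Among nuclear frames outside the 66, 26.5% of those with a match and 19.5% of those without rose on mannose in wild type, and 12.3% and 17.9% fell. The genes with 1 match and with 2 or 3 were not tested against each other.

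Family names of the reference divide the genes into those shared with bacterial ribosomes (41), those specific to mitochondria (24) and RSM22 with neither. The median was 0.33 and 0.22 on mannose in wild type, −0.26 and −0.26 for the deletion on glucose, and −0.83 and −0.86 for the deletion on mannose against wild type. On mannose in wild type 25 of 41 and 10 of 24 rose, where 20.5% of all features rose. In the deletion on glucose 20 of 41 and 16 of 24 fell, where 37.8% of all features did.

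None of the 66 genes has a near-identical copy, and 3 overlap another annotated frame. Besides MRPL51, MRPL19 shares 113 bases with YNL184C on the same strand, which had 1 to 85 counts per library, and MRP4 shares 2 bases with YHL005C on the opposite strand, which had 0 to 5. MRPL19 had a log2 change of 0.13 ± 0.12 on mannose in wild type and was lower by 1.24 on the log2 scale in the deletion on mannose. MRP4 rose by 0.53 ± 0.09 on mannose in wild type.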

How the data were processed

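Per the labels' protocols, RNA was depleted of ribosomal RNA with Ribo-Zero Gold and made into TruSeq stranded libraries. Per the submitters' processing notes, the tools were TopHat2 2.0.9, Bowtie2 2.3.4.2 and CASAVA 1.8, with sacCer3 as the build and no roles stated. The authors deposited 1 raw count per reading frame and sample, and a length that equals the codons of the reference less 10 in all 66 genes. No label or header states which program counted the reads, whether it used strand, or how it treated reads matching several places.

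The 66 genes and all lists, windows and alternatives were chosen with earlier results of these data known. Counts were fitted with edgeR 4.0.16 (R 4.3.3) over the 6 libraries, with 1 mean per group, after filterByExpr (6146 features kept, all 66 genes among them, 550 left out) and TMM scaling. Its 2 residual degrees of freedom come from the glucose pairs, and the fitted common biological variation (BCV) was 5.54%. The prior degrees of freedom, the weight of the spread shared across features, had a median of 86.7. The p-values thus rest mostly on that shared spread and little on the spread of each gene. A change was called at a quasi-likelihood adjusted p under 0.05 (Benjamini-Hochberg over all features tested). SEs are the absolute log2 change over the square root of F. Levels per length are TMM-scaled CPM per kb of coding length. The script was tested on simulated counts.

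Named with values were the 3 largest called rises and falls of each comparison, the highest and lowest 2 per subunit, the 3 most and least like the median profile, genes that overlap others, and MRPL36, MRP51, MRP1, MRP13 and MRPL32. MRPL40, MRPS9, RSM19, MRP7, RSM28 and MRPL15 were named after their values were seen. Alternatives were DESeq2 1.42.0, other scaling factors and filters, lowess trends on GC content and length, a coefficient of variation of 0.2, and leaving out libraries. Motifs were searched in the R64 genome. Near-identical copies were sought with BLAST 2.17.0 (95% identity over 80% of the length). Glucose pairs differed by more than counting error, with a chi-square per degree of freedom of 12 in wild type and 24.4 in the deletion.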

Additional observations from a re-analysis of the deposited data

Results flagged for a closer look

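The response to mannose differed between the genotypes in the test of that difference (edgeR, interaction) for 39 genes that were lower and 6 that were higher in the deletion. Among all features 34.4% were lower and 29.7% higher. Either direction made up 64.2% of all features, so the number of genes called was near the background. In the lower direction the largest log2 differences were −1.49 for MRPL22, −1.38 for MRP2 and −1.37 for MRPL32. In the higher direction they were 0.83 for RSM10, 0.73 for MRPL24 and 0.72 for MRPL4. Each rests on 1 mannose library per genotype, and the share of counts from the mitochondrial genome was 2.65% in that of the deletion and 0.251% in that of wild type. Its part in these differences was not tested.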

How the results depend on the processing

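Of 262 counts and medians under an alternative, 225 stayed within the limits set for them, and the cause of the other shifts was not tested. Medians here are log2 values relative to all features. Percentages in brackets are the shares of all features called in the same direction in the same fit. DESeq2 called 19 falls in the deletion on glucose (25.5%) and 22 rises on mannose in wild type (14.7%). With a coefficient of variation of 0.2 the calls in the deletion on glucose were 1 rise (15.5%) and 0 falls (8.75%). On mannose they were 0 rises (1.37%) in wild type, and 7 rises (22.5%) and 16 falls (18.2%) in the deletion. Between genotypes on mannose 1 was higher (24.3%) and 29 lower (21.6%), and in the interaction 0 were higher (9.01%) and 1 lower (4.3%). With upper-quartile scaling 2 genes were higher between genotypes on mannose (30.1%), 3 in the interaction (22.6%) and 9 on mannose in the deletion (29.6%). With GC and length trends removed 14 were higher (43.5%) between genotypes on mannose (medians −0.49 for the large and −0.45 for the small subunit). In the interaction 11 were higher (32.5%) and 25 lower (32.1%), with medians of −0.21 and −0.22. On mannose in the deletion 18 fell (36.4%), with medians of −0.04 and 0.02, the last with its sign changed. Against no fall on mannose in wild type, 1 was called with upper-quartile scaling (17.8%) and 1 without a filter (15.1%). It was also 1 with at least 10 counts in every library (18.2%) and 1 with nuclear reference frames only (17.2%). Leaving out 1 library at a time gave 22 to 32 falls in the deletion on glucose (small-subunit median −0.19 to −0.08). It gave 22 to 38 rises and 0 to 2 falls on mannose in wild type (large-subunit median 0.19 to 0.33). With 1 glucose library left out, 31.4% to 32.4% of all features fell in the deletion on glucose. On mannose in wild type 13.6% to 23.1% of all features then rose and 11% to 21.4% fell. For mannose in the deletion, leaving out 1 library gave medians of −0.28 to −0.18 for the large and −0.14 to −0.04 for the small subunit. The deletion library on mannose was also left out, an alternative chosen after the data were seen. Then 30 genes fell (33.5%) and 2 rose (33.7%) in the deletion on glucose, and 36 rose (19.8%) on mannose in wild type. Same-numbered glucose libraries did not deviate together (correlation −0.0463 over 6146 features), so the numbers do not pair them. Over the 4 glucose libraries 30 genes fell without a replicate block (33.9% of all features), 27 with it (32.6%), and 19, or 28.8%, with the block and GC and length trends removed, fewer than the 31.3% of all features. Of 335 values of single genes under an alternative none changed direction and 20 lost the call, 14 of them at a coefficient of variation of 0.2.

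The mannose groups have 1 library each, and leaving it out leaves no comparison for them. Depth limits MRP35 most, with 20 counts in the deletion on mannose.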
